A study of Mus musculus with 76 samples.

Results

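The genes described here are 10 genes used to mark macrophages in mouse tumors: C1qa, C1qb, C1qc, Apoe, Trem2, Mrc1, Cd163, Csf1r, Adgre1 and Cx3cr1. They were taken by name and joined to the count table by gene identifier, and all 10 were found among its 55536 mouse genes. Whole BALB/c mouse tumors were profiled by a sequencing assay that reads 3′ ends of polyadenylated RNA, with 76 libraries from 38 tumors, 2 technical libraries per tumor. Tumors grew subcutaneously on the flank from day 0 after injection of 1 of 4 cell lines, were injected once on day 6, and were harvested on day 8. The days given here are those of the sample labels, and the study's text gives later ones. CT26 is a colorectal carcinoma line and 4T1 a mammary carcinoma line. 4T1-CAT cells carry a doxycycline (DOX)-inducible human catalase together with GFP, and 4T1-control cells carry inducible GFP alone. Both engineered lines were made with lentivirus, and mice bearing them ate a DOX diet from day 4, which mice bearing CT26 or 4T1 tumors did not. Every tumor received 100 µg of alum, a mineral adjuvant that stays where it is injected, either alone or with 20 µg of CAT-ABP, a catalase fused to an alum-binding peptide. The 7 groups were CT26 alum (n = 5), CT26 CAT-ABP + alum (n = 6), 4T1 alum (n = 5), 4T1 CAT-ABP + alum (n = 6), 4T1-control alum (n = 6), 4T1-CAT alum (n = 5) and 4T1-CAT CAT-ABP + alum (n = 5). CAT-ABP is called extracellular catalase (EC CAT) below, and the catalase made by 4T1-CAT cells intracellular catalase (IC CAT). Expression of the human catalase transgene was not analysed here.

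Macrophages in tumors derive largely from blood monocytes, with a contribution from macrophages already resident in the tissue, and they depend on signals through the CSF1 receptor. As monocytes mature into macrophages they gain the complement chains, lipid-handling proteins and scavenger receptors that these genes encode. Catalase breaks down hydrogen peroxide, an oxidant that phagocytes both release and are exposed to.

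The complement group held C1qa, C1qb and C1qc, which encode the chains of C1q, the recognition part of the classical complement pathway. They lie next to each other on the minus strand of chromosome 4 within 18675 bases: C1qb at chr4:136880129-136886187 on the minus strand, C1qc at chr4:136889804-136893065 on the minus strand and C1qa at chr4:136895917-136898803 on the minus strand (GENCODE M21, build GRCm38). The lipid-handling group held Apoe (chr7:19696109-19699188 on the minus strand), which encodes a lipid-carrying apolipoprotein, and Trem2 (chr17:48346401-48354147 on the plus strand), which encodes a lipid-sensing receptor that signals through the adaptor Tyrobp. The scavenger group held Mrc1 (chr2:14229392-14332057 on the plus strand), the mannose receptor, and Cd163 (chr6:124304656-124330527 on the plus strand), the receptor that takes up haptoglobin-bound hemoglobin. The last group held Csf1r, the receptor for Csf1 and Il34, Adgre1 (chr17:57358691-57483527 on the plus strand), the adhesion receptor known as F4/80, and Cx3cr1 (chr9:119901616-120069879 on the minus strand), the receptor for the chemokine Cx3cl1. Counts were given per gene, so the values do not separate exons or transcripts.

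Promoter sequences of 5 genes on which the results turn are given here to show which start windows of these genes hold the letters of a myeloid transcription factor's site. Each line holds the 250 bases before the RefSeq start (build GRCm38.p6), read 5′ to 3′ on the gene's own strand. Capitals mark GAGGAA or its reverse complement, core letters of a site for PU.1, that factor.
C1qb (chr4:136886201-136886450, minus strand): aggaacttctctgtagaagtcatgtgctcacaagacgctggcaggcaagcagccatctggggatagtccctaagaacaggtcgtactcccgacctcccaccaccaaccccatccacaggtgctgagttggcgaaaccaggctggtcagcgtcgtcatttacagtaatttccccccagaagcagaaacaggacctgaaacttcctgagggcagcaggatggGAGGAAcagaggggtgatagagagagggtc
C1qc (chr4:136892915-136893164, minus strand): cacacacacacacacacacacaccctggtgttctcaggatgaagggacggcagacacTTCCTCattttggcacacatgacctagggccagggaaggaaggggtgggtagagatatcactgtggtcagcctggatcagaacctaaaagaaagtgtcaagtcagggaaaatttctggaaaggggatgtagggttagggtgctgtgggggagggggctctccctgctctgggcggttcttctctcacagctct
Mrc1 (chr2:14229164-14229413, plus strand): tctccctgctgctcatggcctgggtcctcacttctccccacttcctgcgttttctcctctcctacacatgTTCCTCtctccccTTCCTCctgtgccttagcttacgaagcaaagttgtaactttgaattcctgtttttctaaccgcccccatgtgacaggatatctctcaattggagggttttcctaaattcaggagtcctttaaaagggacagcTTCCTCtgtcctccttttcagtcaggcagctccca
Cd163 (chr6:124304401-124304650, plus strand): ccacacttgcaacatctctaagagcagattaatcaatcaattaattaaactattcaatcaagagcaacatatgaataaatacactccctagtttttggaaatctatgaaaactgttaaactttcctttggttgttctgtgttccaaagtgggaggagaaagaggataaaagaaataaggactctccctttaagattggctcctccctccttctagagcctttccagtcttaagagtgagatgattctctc
Cx3cr1 (chr9:120068297-120068546, minus strand): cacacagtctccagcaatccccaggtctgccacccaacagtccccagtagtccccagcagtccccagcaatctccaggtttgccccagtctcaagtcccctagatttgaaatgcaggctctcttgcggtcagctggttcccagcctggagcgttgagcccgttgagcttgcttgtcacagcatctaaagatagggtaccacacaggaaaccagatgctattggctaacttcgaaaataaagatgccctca

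RefSeq windows were matched for 7 of the 10 genes, 9 windows in all, with 3 of them for Apoe. GAGGAA was found, on either strand, in a window of 5 of the 7 genes, and 23.1% of 27025 RefSeq promoters of the same length held it. In C1qb the match began at position -30 from the start and in C1qc at -193, while the Mrc1 window held it at -180, -167 and -35. Trem2 also held it, at -40, beside a match to TGANTCA, the AP-1 letters, at -9 (6.87% of all promoters), and 2 of the Apoe windows held it. An Apoe window held TATAAA (13% of all promoters). The windows of Cd163 and Cx3cr1 held none of these letters. These matches describe the sequence of the windows and were not tied to binding.

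Summed over its libraries, a tumor had between 493044 and 9077549 counts (median 4827387.5), and 7 single libraries fell under 0.25 of the median library. Both libraries of 4T1-control alum replicate 2 were among them, and this tumor had the lowest total. Levels are given as CPM, counts scaled for library size with TMM factors over the 38 tumors, and the technical libraries of a tumor count as 1 replicate. Pools were read from a part of the index tag that libraries share, and no label says that they were sequenced together. The first pair of pools held both CT26 groups, 4T1 CAT-ABP + alum and 4T1 alum replicates 1 and 2. The second pair held 4T1 alum replicates 3 to 5 and all tumors of the engineered lines. The labelled lines could be told apart by epithelial tumor genes, whose summed level was 21 to 32.0 CPM in CT26 alum and 1910.1 to 2792 CPM in 4T1 alum. A level in a whole tumor sums over all its cells. A lower level of these genes can stand for fewer macrophages, or for less RNA of these genes per macrophage or from other cells. CPM is a share of a tumor's counts, so more RNA of other genes also lowers it. These readings cannot be told apart.

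Apart from 1 tumor without a C1qa count, all 10 genes were counted in all 38 tumors, but C1qa was thinly counted. Its count was 0 to 32 per tumor (median 9.5), with 19 of 38 tumors under 10, whereas the neighbouring chains had medians of 496 (C1qb) and 594.5 (C1qc) counts. Tested over all 7 groups at once by edgeR's quasi-likelihood test (Benjamini-Hochberg adjusted), 5 of the 10 genes passed, against 54.7% of the 14646 genes tested. Adgre1 (adjusted p = 5.67e-08), Cx3cr1 (1.42e-07), Apoe (1.84e-05), Cd163 (4.45e-04) and C1qb (0.00157) passed in edgeR's quasi-likelihood test (adjusted over all genes). C1qc (0.0536), C1qa (0.0557), Trem2 (0.0631) and Mrc1 (0.0991) missed the threshold of 0.05 in the same test. Csf1r, which encodes the receptor that macrophages need, gave the highest adjusted p in edgeR's quasi-likelihood test, 0.748. When each gene's 7 groups were put in order of mean level, nearly all neighbours in the order lay within the spread between tumors. The exceptions were the step from the CT26 groups down to the next group for Adgre1 and for C1qb, the step from 4T1-CAT CAT-ABP + alum down to CT26 CAT-ABP + alum for Apoe, and the step from CT26 CAT-ABP + alum down to CT26 alum for Cx3cr1.

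**Figure D1:**
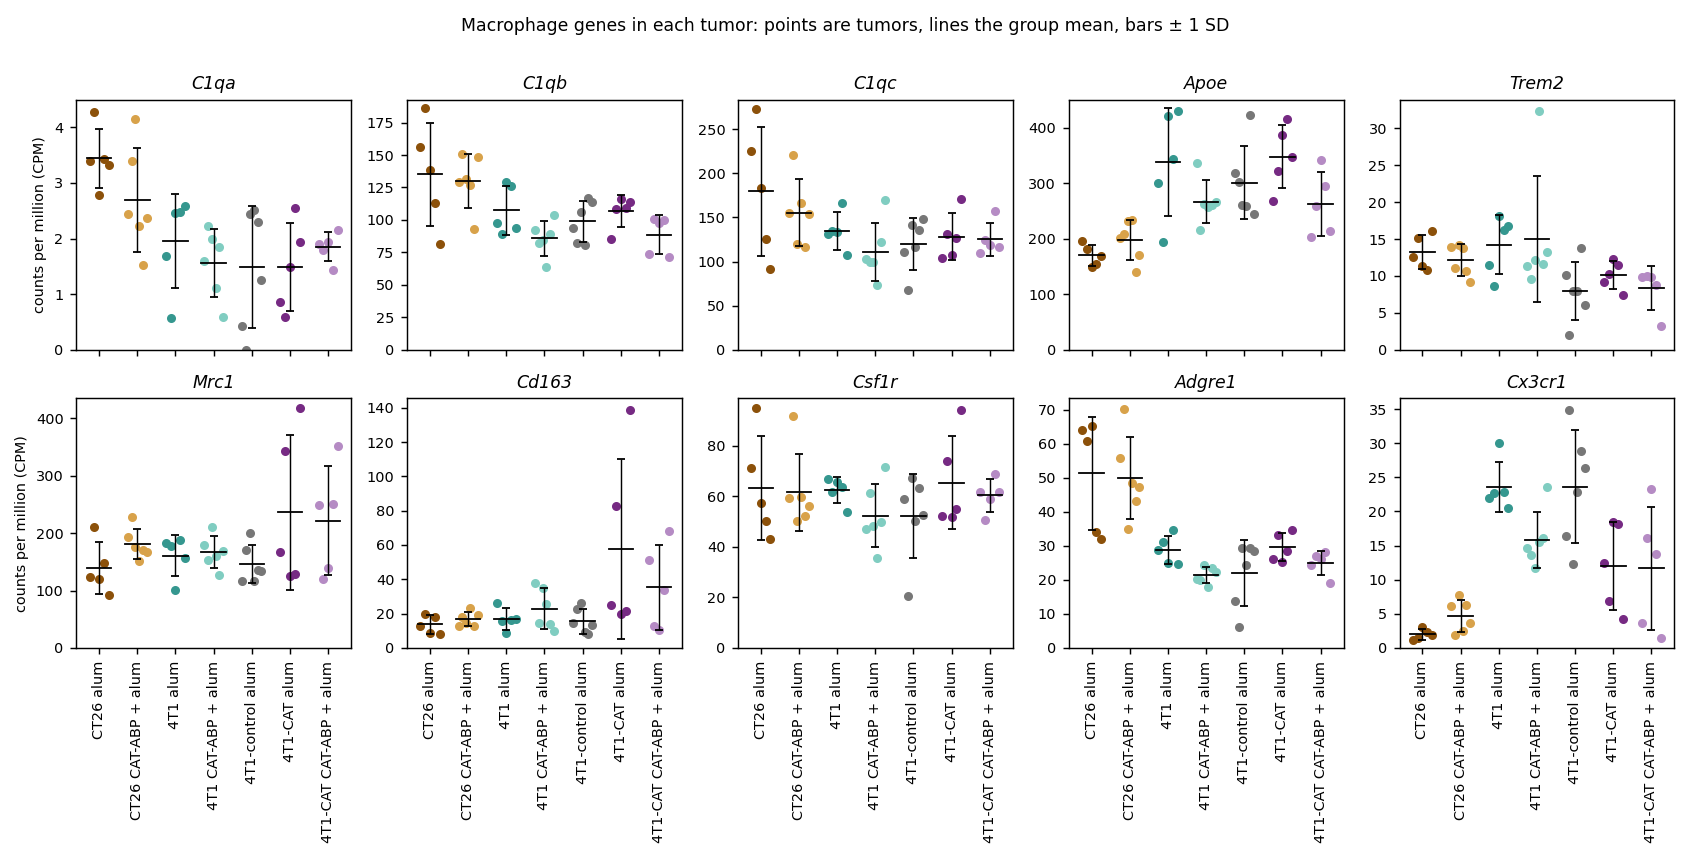
Level of each of the 10 macrophage genes (CPM, linear axis from 0) in each of the 38 tumors, by group, with points for tumors, lines for group means and bars for 1 SD on either side. Cx3cr1 is low in both CT26 groups, 1.2 to 7.72 CPM, and Cd163 spreads most widely in the 4T1-CAT groups, where it reaches 139 CPM.

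The tumor lines were compared under alum and, in separate tumors, under CAT-ABP + alum. Cx3cr1 had the largest difference of the 10 genes under both injections, and it was lower in CT26. Under alum its level was 1.2, 1.42, 3.06, 2.28 and 1.90 CPM in the 5 CT26 tumors and 22.0, 22.7, 30.0, 22.9 and 20.4 CPM in the 5 4T1 tumors. Every 4T1 tumor lay far above every CT26 tumor, and the groups did not overlap. The log2 fold change was -3.47 (SE 0.24), that is 11.1-fold lower in CT26, with adjusted p = 2.06e-08 in edgeR's quasi-likelihood test (Benjamini-Hochberg adjusted). An exact permutation test of the levels gave p = 0.00794, the smallest that 5 tumors against 5 allow. Under CAT-ABP + alum the 6 CT26 tumors spanned 1.91 to 7.72 CPM with a median of 4.90, and the 6 4T1 tumors spanned 11.7 to 23.6 with a median of 15.1. These groups did not overlap either, and the log2 fold change was -1.79 (SE 0.30, adjusted p = 1.07e-04 in edgeR's quasi-likelihood test, exact permutation p = 0.00216). The Cx3cr1 counts were low, 3 to 185 per tumor. Its gene model also spans other protein-coding genes, of which Gorasp1 and Csrnp1 lie on the same strand and Wdr48 on the other. Under alum their log2 fold changes were -0.19 (SE 0.29), 0.34 (SE 0.34) and -0.11 (SE 0.22), and none of the 3 passed the test. Cx3cl1, which encodes the ligand of Cx3cr1, was also lower in CT26, at 0.769 ± 0.497 (SD, n = 5) against 7.68 ± 2.46 (SD, n = 5) CPM (log2 fold change -3.22, adjusted p = 1.24e-05, edgeR's quasi-likelihood test).

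Adgre1, by contrast, was higher in CT26. Under alum the CT26 tumors had 64.1, 60.7, 65.4, 34.2 and 32.0 CPM, and the 4T1 tumors had 28.7, 31.1, 24.9, 34.6 and 24.6 CPM. CT26 replicates 4 and 5 lay just below the highest 4T1 tumor, so the groups overlapped there. The level was 1.81-fold higher in CT26 (log2 fold change 0.85, SE 0.21, adjusted p = 0.00372 in edgeR's quasi-likelihood test (adjusted over all genes), exact permutation p = 0.0238). Under CAT-ABP + alum the lowest, median and highest CT26 tumors had 34.8, 47.9 and 70.2 CPM, all above the 4T1 range of 17.8 to 24.3. The fold was 2.28 (log2 1.19, SE 0.15, adjusted p = 5.52e-06 in edgeR's quasi-likelihood test). Csf1r spread widely in CT26 around the narrow 4T1 range, with 42.9 to 94.9 CPM in CT26 alum and 53.8 to 66.6 CPM in 4T1 alum. Its log2 fold change was 0.04 under alum, with a 95% interval of -0.32 to 0.40, and 0.20 under CAT-ABP + alum, with an interval of -0.11 to 0.52. Leaving out single tumors moved the alum value between -0.15 and 0.14. Il34, which encodes the ligand of Csf1r besides Csf1, was higher in CT26 under both injections, by log2 0.99 (adjusted p = 0.0132) and 0.75 (adjusted p = 0.0383) in edgeR's quasi-likelihood test. Ligand genes as a list did not share this direction. Under alum 1 was higher and 1 lower of 4 tested, and under CAT-ABP + alum 1 was higher and 3 lower of 5. Of all genes tested, 42.4% passed under alum and 45.5% under CAT-ABP + alum.

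The C1q chains were higher in CT26 in point estimate under both injections. C1qb and C1qc passed the test under CAT-ABP + alum alone, and C1qa under neither. C1qb was 156, 186, 138, 113 and 81.8 CPM in the CT26 alum tumors and 98.0, 89.1, 129, 126 and 93.9 CPM in the 4T1 alum tumors, and the groups overlapped (log2 fold change 0.35, SE 0.20, adjusted p = 0.159, edgeR's quasi-likelihood test). C1qc was 225, 272, 183, 125 and 91.1 CPM in CT26 alum and 131, 135, 134, 166 and 107 CPM in 4T1 alum (log2 fold change 0.44, SE 0.24, adjusted p = 0.159, edgeR's quasi-likelihood test). CT26 replicates 1 to 3 were above every 4T1 tumor for C1qc, while CT26 replicate 5 was below every 4T1 tumor for both genes. Without that tumor both chains passed the test under alum. Under CAT-ABP + alum C1qb spanned 93.1 to 151 CPM in CT26 against 63.4 to 104 in 4T1, a 1.48-fold difference (log2 0.57, SE 0.14, adjusted p = 0.00239, edgeR's quasi-likelihood test). C1qc spanned 116 to 221 against 73.4 to 169.8 CPM, and its difference was close to the threshold (log2 0.45, SE 0.18, adjusted p = 0.0474, edgeR's quasi-likelihood test) and was lost when any of 8 single tumors was left out. C1qa, at 3.40, 4.27, 2.78, 3.42 and 3.32 CPM in CT26 alum and 1.69, 0.575, 2.45, 2.47 and 2.59 CPM in 4T1 alum, separated the groups without overlap in these few reads (log2 0.75, SE 0.35, exact permutation p = 0.00794). It missed the threshold in edgeR's quasi-likelihood test under alum (adjusted p = 0.0960) and under CAT-ABP + alum (log2 0.73, adjusted p = 0.0932).

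Apoe was lower in CT26 under both injections, the direction of Cx3cr1 and not of the C1q chains. Under alum the CT26 tumors had 196, 181, 149, 154 and 169 CPM, a narrow range. The 4T1 tumors had 299, 194, 421, 344 and 429.6 CPM. The only 4T1 tumor within the CT26 range was replicate 2, from the pools that the CT26 tumors shared. Apoe was 1.95-fold lower in CT26 (log2 -0.96, SE 0.20, adjusted p = 0.00100, edgeR's quasi-likelihood test, exact permutation p = 0.0159). Under CAT-ABP + alum the ranges were 140.4 to 233 CPM in CT26 and 216 to 337 in 4T1, with a log2 fold change of -0.46 (SE 0.15, adjusted p = 0.0210, edgeR's quasi-likelihood test). Under CAT-ABP + alum Apoe lost the threshold when any of 3 single tumors was left out (highest adjusted p = 0.0566, edgeR's quasi-likelihood test). It also lost the threshold there with the first technical libraries alone. Trem2, the receptor of the same group, passed under neither injection. Its range was 10.8 to 16.1 CPM in CT26 alum and 8.63 to 18.1 in 4T1 alum, and its log2 fold changes of -0.11 (95% interval -0.53 to 0.32) and -0.17 (-0.69 to 0.35) changed sign with the setting.

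Neither scavenger receptor passed the test between the lines. Mrc1 was 124, 211, 121, 148 and 92.3 CPM in CT26 alum and 182, 177, 101, 187 and 158 CPM in 4T1 alum, and the groups overlapped. Cd163 was 13, 19.9, 8.91, 18.3 and 8.30 CPM in CT26 alum and 26.4, 15.5, 8.68, 16.4 and 17.1 CPM in 4T1 alum. The log2 fold changes under alum were -0.19 for Mrc1 (95% interval -0.63 to 0.25) and -0.30 for Cd163 (-0.90 to 0.30). Under CAT-ABP + alum they were 0.09 and -0.45. Counted together, 3 of the 10 genes passed under alum, 1 higher and 2 lower in CT26, against 42.4% of all 12817 genes tested, 21.3% higher and 21.1% lower. Under CAT-ABP + alum 5 of 10 passed, 3 higher and 2 lower, against 45.5% of 13016 genes, 21.8% higher and 23.7% lower. Neither share stood more than 1 gene above that of all genes, so the counts are not a result about these genes as a set. Groups that did not overlap were counted for 2 of the 10 genes under alum, C1qa and Cx3cr1, against 29.5% of all genes, and for 2 under CAT-ABP + alum, Adgre1 and Cx3cr1, against 21.8%. The median log2 fold change of the 10 genes was -0.03 under alum and 0.14 under CAT-ABP + alum, beside 0.02 and -0.02 over all genes.

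**Figure D2:**
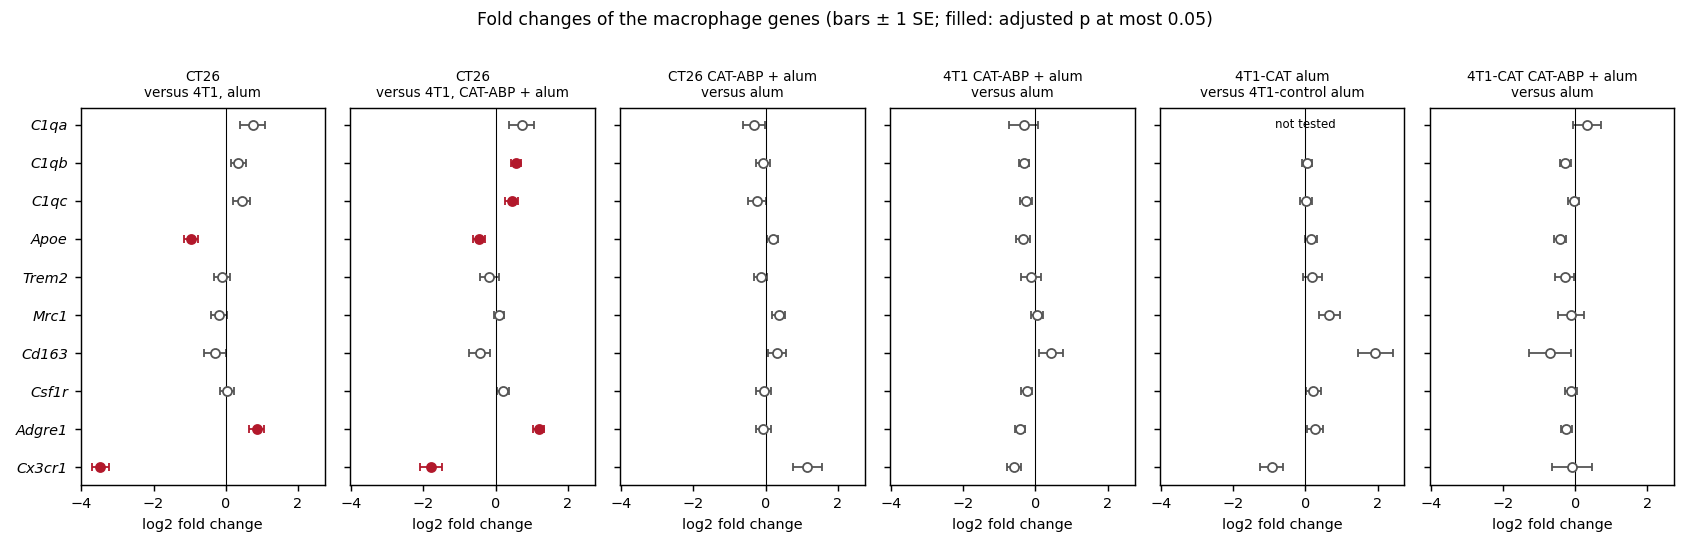
Log2 fold change of each macrophage gene in the comparisons of 2 groups, with bars for 1 SE on either side and filled points for genes past the adjusted threshold. Filled points appear only where CT26 is set against 4T1, with Cx3cr1 at -3.47 and -1.79 and Adgre1 at 0.85 and 1.19, and the open point farthest from 0 is Cd163 at 1.94 under IC CAT.

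All CT26 tumors were in the first pools and most 4T1 alum tumors in the second. The alum comparison was therefore also made within the first pools, with 4T1 alum replicates 1 and 2 alone. There 1 gene passed, Cx3cr1 (log2 fold change -3.44, adjusted p = 2.89e-05, edgeR's quasi-likelihood test). Adgre1 kept its size (0.77, adjusted p = 0.0850), while Apoe went to -0.55 (adjusted p = 0.0858), and neither passed edgeR's quasi-likelihood test. With the pool as a block, Cx3cr1 (-3.42) and C1qa (1.59, adjusted p = 0.0295) passed edgeR's quasi-likelihood test, and Apoe (-0.53) and Adgre1 (0.78) did not. The line effect in this fit also rested on 4T1 alum replicates 1 and 2, so it is not a separate check. These 2 tumors had 5 and 2 C1qa counts. Both groups of the CAT-ABP + alum comparison came from the first pools.

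Other genes linked to the same cells and pathways gave context for these differences. Their levels too sum over all cells of a tumor. Of all genes tested, 42.4% passed between the lines under alum and 45.5% under CAT-ABP + alum. A count near these shares is not a result about a list. Of 14 further macrophage identity genes, 8 were higher and 0 lower in CT26 under alum, with a median log2 fold change of 0.85, and 12 higher and 0 lower under CAT-ABP + alum (median 0.92). C3ar1, the receptor for complement C3a, was 97.7 ± 13.5 (SD, n = 5) against 42.8 ± 7.95 (SD, n = 5) CPM under alum (log2 1.21, adjusted p = 9.95e-06, edgeR's quasi-likelihood test), and Fcgr1, an Fc receptor, differed by log2 1.45. The summed level of the list was 5407 to 5593 CPM in CT26 alum and 2305 to 4942 in 4T1 alum. Among 7 tested genes of TREM2 signaling, 4 were higher and 1 lower under alum. Hcst, an adaptor, was higher (log2 1.44) and Plcg2, a phospholipase, was lower (log2 -2.80, adjusted p = 2.15e-07, edgeR's quasi-likelihood test). Under CAT-ABP + alum 4 were higher, Tyrobp among them (log2 0.68, adjusted p = 0.00539, edgeR's quasi-likelihood test), and 1 was lower of 8 tested.

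The other complement genes were nearly all higher in CT26: 10 higher and 1 lower of 11 under alum, and 9 and 1 of 11 under CAT-ABP + alum. C1s1, a protease of the C1 complex, was 138 ± 29.7 (SD, n = 5) against 8.15 ± 1.90 (SD, n = 5) CPM (log2 4.11, adjusted p = 6.78e-10, edgeR's quasi-likelihood test), and C1ra, its partner protease, differed by log2 2.97. In the APOE pathway, the counts were 5 higher and 3 lower of 9 under alum and 3 and 4 of 9 under CAT-ABP + alum. Vldlr, a receptor for APOE-bearing particles, was higher in CT26 (log2 4.70), and Apoc2, a neighbour of Apoe that activates lipoprotein lipase, was lower (10.1 ± 0.572 (SD, n = 5) against 38 ± 12.2 (SD, n = 5) CPM, log2 -1.89, adjusted p = 1.81e-06, edgeR's quasi-likelihood test). Of 14 genes of lipid-associated macrophages 6 were higher and 2 lower in CT26 under each injection. Which cells the RNA of these lists came from cannot be told from whole tumors. Lgals3, which encodes a galectin, was higher (log2 1.21 under alum), and Fabp5, a fatty acid carrier, was lower (log2 -1.40 under CAT-ABP + alum).

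Of the genes of tissue-resident macrophages 4 were higher and 2 lower of 13 under alum, and 5 and 2 of 14 under CAT-ABP + alum. These counts were near the shares of all genes, 42.4% and 45.5%. Ccl8, a monocyte-attracting chemokine, was 7867 ± 2015 (SD, n = 5) against 1538 ± 381 (SD, n = 5) CPM (log2 2.38), Folr2, a folate receptor, differed by 0.82 and Mgl2, a lectin, by -1.85. Markers of other blood-derived cells moved with the line as well. Of 7 monocyte genes 5 were higher and 1 lower in CT26 under each injection, with Ly6c2, a marker of inflammatory monocytes, at 170.1 ± 75.2 (SD, n = 5) against 13.5 ± 4.00 (SD, n = 5) CPM (log2 3.68) and Fn1, which encodes fibronectin and which other cells also make, at log2 -1.64. All 6 tested T and NK cell genes were higher under alum, and their summed level was 80.2 to 177 CPM in CT26 alum against 15.5 to 24.3 in 4T1 alum. The part of these cell markers in the differences of the macrophage genes was not tested.

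Extracellular catalase was compared with alum alone in 3 settings, to ask whether breaking down hydrogen peroxide outside cells changes the tumor's transcripts. In CT26 no macrophage gene passed the test, 0 of 10, and 0% of 12830 genes passed. DESeq2 and limma also called none of the 10 genes. At an unadjusted p under 0.05 edgeR held 1 of 10, Cx3cr1, against 2.42% of all genes. Groups without overlap were found for 0 of the 10 and for 0.218% of all genes. Cx3cr1 was 1.2, 1.42, 3.06, 2.28 and 1.90 CPM under alum, and its lowest, median and highest levels under CAT-ABP + alum were 1.91, 4.90 and 7.72 CPM. Under CAT-ABP + alum 4 of the 6 tumors exceeded every alum tumor, and the other two lay among them. The log2 fold change was 1.16 (SE 0.41, unadjusted p = 0.0130 and adjusted p = 1.000 in edgeR's quasi-likelihood test, exact permutation p = 0.0260), on counts that were low in this line. The lowest log2 fold change was that of C1qa, -0.33, and the median over the 10 genes was -0.05.

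In 4T1 tumors EC CAT gave no macrophage gene past the adjusted threshold either, 0 of 10, with 0% of 13092 genes. Neither did DESeq2 or limma call any of the 10. The unadjusted threshold was passed by 3 of the 10, Cx3cr1, Adgre1 and C1qb, all lower under CAT-ABP + alum, while 2.88% of all genes passed it. Cx3cr1 was 22.0, 22.7, 30.0, 22.9 and 20.4 CPM under alum. Under CAT-ABP + alum its lowest, median and highest tumors had 11.7, 15.1 and 23.6 CPM. Only the highest CAT-ABP + alum tumor reached the alum range. The log2 fold change was -0.59 (SE 0.18, unadjusted p = 0.00425, adjusted p = 0.999, edgeR's quasi-likelihood test, exact permutation p = 0.0216). Adgre1 was 28.7, 31.1, 24.9, 34.6 and 24.6 CPM under alum and 17.8 to 24.3 CPM, with a median of 21.4, under CAT-ABP + alum. These groups did not overlap, which held for 0.336% of all genes (log2 -0.43, SE 0.14, unadjusted p = 0.00643, adjusted p = 0.999, edgeR's quasi-likelihood test, exact permutation p = 0.00433). The gap between the lowest alum tumor and the highest CAT-ABP + alum tumor was narrow, and without TMM scaling the exact permutation p was 0.0563. C1qb was 98.0, 89.1, 129, 126 and 93.9 CPM under alum and 63.4 to 104 under CAT-ABP + alum (log2 -0.32, exact permutation p = 0.0693). Alum replicates 1 and 2, the first values listed for each gene, came from the first pools, as did all CAT-ABP + alum tumors. The other alum tumors came from the second pools. In replicates 1 and 2 C1qb (98.0 and 89.1 CPM) and Cx3cr1 (22.0 and 22.7) lay within the CAT-ABP + alum range. Adgre1 (28.7 and 31.1) lay above it. With the pool as a block, or within shared pools, 0 of the 10 genes passed the adjusted threshold. In both lines the alum tumors are those of the line comparison, so the values are not independent of it.

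Whether the EC CAT effect differed between CT26 and 4T1 was tested as an interaction, in which 0 of the 10 genes and 0% of 14160 genes passed. For Cx3cr1, higher with EC CAT in CT26 and lower in 4T1 in point estimate, the difference of the log2 fold changes was 1.71 (SE 0.43, 95% interval 0.88 to 2.55, unadjusted p = 4.49e-04, adjusted p = 1.000, edgeR's quasi-likelihood test). Apoe had a difference of 0.53 (unadjusted p = 0.0421 in edgeR's quasi-likelihood test). The unadjusted threshold was passed by 3.59% of all genes. In this test too the 4T1 alum tumors came partly from the second pools and all others from the first. With the pool as a block, or within shared pools, 0 of the 10 genes passed.

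Intracellular catalase was compared between 4T1-CAT and 4T1-control tumors, both given alum and the DOX diet. Cd163 was higher and Cx3cr1 lower in 4T1-CAT in point estimate, and no macrophage gene passed the adjusted threshold, 0 of 9 tested, with 0% of 12534 genes. C1qa was too thinly counted to be tested. DESeq2 and limma also called none. The unadjusted threshold was passed by 3 of 9, Cd163, Mrc1 and Cx3cr1, and by 5.08% of all genes. Groups without overlap were counted for 0 of 9 and for 0.654% of all genes. Cd163 was 25.2, 82.9, 20.0, 21.8 and 139 CPM in the 5 4T1-CAT tumors. In the 6 4T1-control tumors its lowest, median and highest levels were 7.93, 13.8 and 26.3 CPM. 4T1-CAT replicates 2 and 5 stood far above all controls, and the other tumors lay within the control range. The log2 fold change was 1.94 (SE 0.50, unadjusted p = 0.00108, adjusted p = 0.518, edgeR's quasi-likelihood test, exact permutation p = 0.0390), and ran from 1.32 without 4T1-CAT replicate 5 to 2.25 when single tumors were left out. With no filter on low counts 131 genes passed the adjusted threshold, Cd163 (adjusted p = 3.13e-09) and Cx3cr1 (adjusted p = 0.0349) among them in edgeR's quasi-likelihood test. Under the other alternatives the adjusted p of Cd163 in edgeR, DESeq2 or limma lay between 0.154 and 1.

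Mrc1, the other scavenger receptor, was 167, 343, 125, 129 and 419 CPM in 4T1-CAT alum against 116 to 199.7 CPM (median 135) in 4T1-control alum. The same replicates, 2 and 5, were above every control tumor. The log2 fold change was 0.66 (unadjusted p = 0.0386, adjusted p = 0.941, edgeR's quasi-likelihood test, exact permutation p = 0.208), and it was 0.34 without 4T1-CAT alum replicate 5. Cx3cr1 was 12.4, 6.90, 18.5, 18.1 and 4.28 CPM in 4T1-CAT alum, lowest in replicates 5 and 2, and 12.2 to 34.9 CPM (median 24.6) in 4T1-control alum. Its log2 fold change was -0.94 (SE 0.32, unadjusted p = 0.00946, adjusted p = 0.715, edgeR's quasi-likelihood test, exact permutation p = 0.0476). For the other tested genes the groups overlapped. C1qb, for example, was 85.6 to 116 CPM against 80.9 to 117, and Csf1r was 51.6 to 94.1 against 20.5 to 67.0. The lowest values of Csf1r, Adgre1 and Trem2 and the highest of Cx3cr1 among the controls came from the tumor of lowest depth, without whose libraries Cx3cr1 had a log2 fold change of -0.86. The median log2 fold change was 0.19 over the 9 genes, beside -0.01 over all genes.

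Genes of related cells were read beside these values. In the same comparison no gene of the tissue-resident macrophage list passed the adjusted threshold, and 6 of 12 passed the unadjusted one. Of all genes tested, 5.08% passed the unadjusted threshold. Its summed level, to which Ccl8 contributed most, was 2825, 8869, 4092, 3739 and 10333 CPM in 4T1-CAT replicates 1 to 5, against 1629 to 3185 in 4T1-control, so that the replicates high in Cd163 were also the highest here. Fibroblast genes summed to 3691, 3207, 2705, 3232 and 5826 CPM and skeletal muscle genes to 310.2, 239, 354, 200.5 and 479.7 CPM in the same tumors, each highest in replicate 5. Markers of most other non-tumor cells were also higher in 4T1-CAT in point estimate. The unadjusted threshold was passed by 4 of 8 fibroblast genes, 4 of 5 muscle genes, 3 of 7 monocyte genes, 3 of 6 neutrophil genes, 3 of 6 dendritic cell genes and 3 of 5 T and NK cell genes. Median log2 fold changes of these 6 lists were 0.40, 1.00, 0.62, 0.66, 0.71 and 0.96, and all tested genes were above 0 in each but the monocyte list, where 6 of 7 were. Of 6 genes of alternative activation, 3 passed it (median 0.57). Their part in the Cd163, Mrc1 and Cx3cr1 values was not tested.

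**Figure D3:**
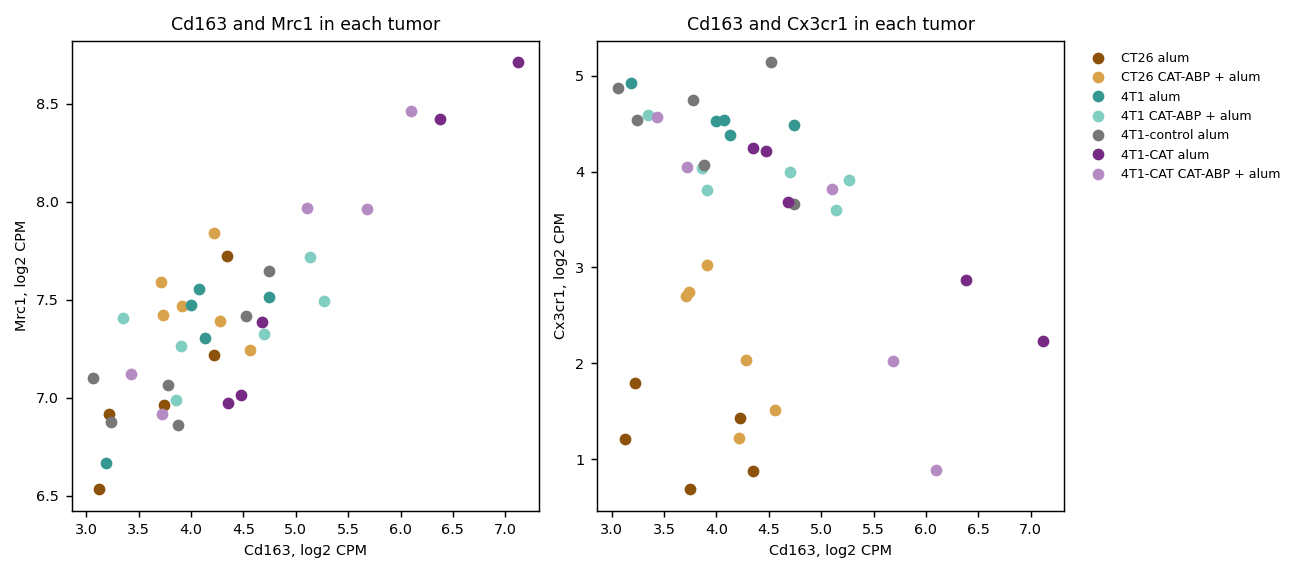
Level of Cd163 against Mrc1 and against Cx3cr1 (log2 CPM), 1 point per tumor, colored by group. 4T1-CAT tumors with high Cd163, up to 139 CPM, have high Mrc1, up to 419 CPM, and low Cx3cr1, down to 1.44 CPM.

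Adding EC CAT to IC CAT was examined in 4T1-CAT tumors. Again 0 of the 10 genes passed, with 0% of 13093 genes, and DESeq2 and limma called none of the 10. The alum tumors are those of the comparison before. The unadjusted threshold was passed by 1 of 10, Apoe, and by 15.3% of all genes, and the groups were without overlap for 0 of 10 and for 2.56% of all genes. Apoe was 269, 322, 386, 415 and 348 CPM under alum and 203, 258, 341, 294 and 213 CPM under CAT-ABP + alum, with ranges that overlapped (log2 -0.41, unadjusted p = 0.0266, adjusted p = 0.272, edgeR's quasi-likelihood test, exact permutation p = 0.0556). Cd163 remained widely spread, at 51.0, 12.8, 10.4, 34.0 and 68.2 CPM under CAT-ABP + alum, and its log2 fold change of -0.71 (95% interval -1.83 to 0.42) was the lowest of the 10 genes. Without 4T1-CAT alum replicate 5 it was -0.09. Cx3cr1 was 3.64, 16.2, 23.3, 13.7 and 1.44 CPM under CAT-ABP + alum, and the tumors with least Cx3cr1, replicates 5 and 1, were those with most Cd163. Mrc1 was 249, 120.4, 139, 250.1 and 352 CPM in the same tumors, highest in replicate 5. C1qa had the highest log2 fold change, 0.32, on few counts, and it ran from 0.098 to 0.41 when single tumors were left out. The median over the 10 genes was -0.19.

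The engineered 4T1-control line was set against 4T1 under alum. Line and DOX diet changed together here and cannot be told apart, and 4T1 alum replicates 1 and 2 came from other pools than the rest. No macrophage gene passed, 0 of 9 tested, with 0% of 12431 genes, and DESeq2 and limma called none of the 9. Trem2 alone was under the unadjusted threshold, as were 10.5% of all genes, and 0 of 9 had groups without overlap, against 1.4% of all genes. It was 11.5, 8.63, 18.1, 16.2 and 16.8 CPM in 4T1 alum and 2.05, 7.96 and 13.8 CPM, lowest, median and highest, in 4T1-control alum. The ranges overlapped (log2 -0.69, unadjusted p = 0.0140, adjusted p = 0.326, edgeR's quasi-likelihood test, exact permutation p = 0.0303). All 9 log2 fold changes were below 0, with a median of -0.12.

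How the genes varied together within groups was described from log2 CPM less the group mean over the 38 tumors, for all 45 pairs. With 100000 permutations within groups and Benjamini-Hochberg adjustment over the pairs, 13 pairs passed in r, 9 positive and 4 negative, and 12 of them also in rho. The levels of a tumor share its libraries, depth and scaling factor. Cd163 and Mrc1 had the highest r (r = 0.852, rho = 0.827, adjusted permutation p of r = 1.80e-04 and of rho = 1.80e-04). Without the 2 tumors farthest from the median r was 0.803, and it was 0.581 within the 11 CT26 tumors and 0.891 within the 27 tumors of the 4T1 lines. C1qc formed a second group with Csf1r (r = 0.851, rho = 0.761, adjusted permutation p of r = 1.50e-04 and of rho = 1.80e-04), C1qb (r = 0.804, rho = 0.763, adjusted permutation p of r = 1.80e-04 and of rho = 1.80e-04) and Adgre1 (r = 0.779, rho = 0.834, adjusted permutation p of r = 1.50e-04 and of rho = 1.80e-04). Without the 2 farthest tumors these r values were 0.83, 0.750 and 0.725. They held within CT26 (0.937, 0.911 and 0.898) and within the 4T1 lines (0.831, 0.701 and 0.745). The other positive pairs were Csf1r with Adgre1 (r = 0.758), C1qb with Csf1r (0.578), Adgre1 (0.543) and Apoe (0.465), and Apoe with Trem2 (0.434). Csf1r with Adgre1 had r = 0.606 without the 2 farthest tumors and 0.481 without the libraries of low depth. Apoe with Trem2 was close to the threshold (adjusted permutation p = 0.0484). Its r was 0.309 without the 2 farthest tumors and 0.528 without the libraries of low depth. C1qa, the thinly counted chain, was in no pair that passed.

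Cx3cr1 went the other way. It was lower where Cd163 was higher (r = -0.744, rho = -0.728, adjusted permutation p of r = 1.50e-04 and of rho = 1.80e-04), and r was -0.679 without the 2 farthest tumors, -0.559 within CT26 and -0.780 within the 4T1 lines. With Mrc1 it had r = -0.646 (adjusted permutation p = 0.00345), which was -0.208 within CT26 and -0.735 within the 4T1 lines, and with Csf1r r = -0.400 (adjusted permutation p = 0.0131). The pair with Csf1r did not pass without the libraries of low depth (r = -0.312, adjusted permutation p = 0.0696). Trem2 and Mrc1 also had a negative r (-0.376, adjusted permutation p = 0.0484), which did not pass in rho, nor in r without the libraries of low depth (adjusted permutation p = 0.0943). Among 11267 genes with a mean of at least 20 counts per tumor, those whose centred levels were most like the mean of the standardized macrophage genes over the 38 tumors were Ccr1 (r = 0.818), AB124611 (0.801), Ppt1 (0.799), Sema4a (0.798) and Marchf1 (0.793), picked for this likeness and given with no test.

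**Figure D4:**
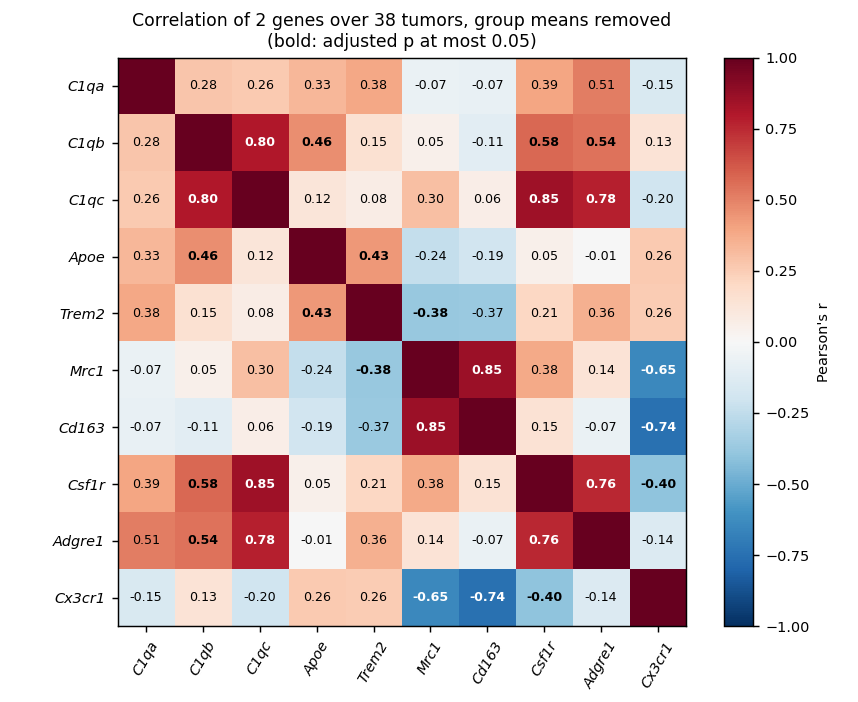
Pearson r of each pair of macrophage genes over 38 tumors, from log2 CPM less the group mean, as a color grid with bold values for the 13 pairs past the adjusted threshold. Mrc1 with Cd163 (0.852) and C1qc with Csf1r (0.851) are the strongest positive pairs, and Cd163 with Cx3cr1 (-0.744) is the strongest negative pair.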

How the data were processed

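RNA from whole tumors was sequenced at 3′ ends with a modified SCRB-seq protocol. The authors made the deposited estimated counts per gene with a Smart-seq2 pipeline, and whether molecular identifiers were collapsed is not given in the sources used here. Counts of the 2 technical libraries from each tumor were added and rounded to whole numbers. Gene names, strands and positions came from GENCODE M21, in which all 55536 identifiers matched. Groups were compared in R 4.3.3 with edgeR 4.0.16: TMM scaling, filterByExpr, glmQLFit and glmQLFTest, Benjamini-Hochberg adjustment over all genes tested and a threshold of 0.05, with only the compared groups in each fit. Levels were tested by two-sided exact permutation on log2 CPM with a prior count of 2. The smallest p possible was 0.00794 for 5 tumors against 5, 0.00433 for 5 against 6 and 0.00216 for 6 against 6.

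DESeq2 1.42.0, limma 3.58.1 with voom quality weights, other scaling, filters, single technical libraries, pools and tumors left out in turn were tried as alternatives. The scripts were tested on simulated data. The 10 genes and the lists of related genes were chosen with earlier results of these data known. From each list and comparison, up to 4 genes with the smallest adjusted p past the threshold could be named. Same-numbered tumors did not consistently deviate together (correlations of -0.371 to 0.395), so numbers were not used to pair tumors in the reported tests. For EC CAT in CT26 and in 4T1-CAT tumors, 2 of 5 correlated best with their own number. Depth per tumor is given in the results, and counting error is largest for C1qa and Cx3cr1.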

Additional observations from a re-analysis of the deposited data

Results flagged for a closer look

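In 7 of 70 sets of tumors (10 genes in 7 groups), 1 tumor stood apart from the rest of its group by Dixon's criterion, which chance alone gives in about 1 in 20. Trem2 was 32.3 CPM in 4T1 CAT-ABP + alum replicate 4, above its group, and 3.16 CPM in 4T1-CAT CAT-ABP + alum replicate 5, below its group. The first of these tumors had the lowest depth of its group, 837403 counts in total. Csf1r was 91.8 CPM in CT26 CAT-ABP + alum replicate 2, the highest of that group. In 4T1-control alum replicate 2, the tumor of lowest depth, Csf1r was 20.5 CPM from 10 counts. Cx3cr1 was 30.0 CPM in 4T1 alum replicate 3 and 23.6 CPM in 4T1 CAT-ABP + alum replicate 6, each the highest of its group. C1qb was 85.6 CPM in 4T1-CAT alum replicate 1, the lowest of that group. The part of depth in these values was not tested.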

How the results depend on the processing

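Among the folds of the 10 genes between groups compared under alternatives other than leaving out a tumor, 344 values kept their direction and their side of the threshold, 4 gained the threshold, 9 lost it and 11 turned, all 11 for Csf1r and Trem2, which passed in no line comparison. Under alum the log2 fold change of Csf1r was -0.00813 with a replicate block, -0.0150 with the first technical libraries alone, -0.00546 with limma, -0.0251 with a pool block and -0.0354 within shared pools. That of Trem2 was 0.24 with the second technical libraries alone, 0.39 with a pool block and 0.38 within shared pools. Under CAT-ABP + alum Trem2 was 0.0307 with the second technical libraries and 0.0705 with limma, and Csf1r was -0.0664 with the second technical libraries.

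Leaving out tumors in turn gave Csf1r -0.15 (without CT26 alum replicate 2) to 0.14 under alum, where it was -0.01 without 4T1 alum replicate 5, and Trem2 -0.24 to 0.0807 under CAT-ABP + alum, turned by 4T1 CAT-ABP + alum replicate 4. Of the 10 genes 3 to 5 then passed between the lines under alum, with 5 without CT26 alum replicate 5, and 3 to 5 under CAT-ABP + alum, with 3 without CT26 CAT-ABP + alum replicate 6 or 4T1 CAT-ABP + alum replicate 1. Over the 7 groups 5 to 7 passed. Within shared pools 1 of the 10 passed between the lines under alum, and with the first technical libraries alone 3 passed under CAT-ABP + alum. Over the 7 groups 8 passed with DESeq2, with no filter on low counts, with the second technical libraries alone and with limma, C1qc, C1qa and Trem2 being added with DESeq2 and limma. Under IC CAT 2 passed with no filter, and with the other alternatives 0 passed in the catalase comparisons.

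Counts over all genes moved more. DESeq2 called 1 gene for EC CAT in CT26, 6 for IC CAT, 249 for EC CAT in 4T1-CAT tumors and 16 for 4T1-control against 4T1. With no filter these were 1, 131, 47 and 130, with 16 for EC CAT in 4T1 and 2 for the interaction. limma called 1 for EC CAT in CT26, 10 in 4T1-CAT tumors and 12 for 4T1-control against 4T1. The last count was 8 in 1 model over 7 groups, 14 without libraries of low depth and 1 within shared pools. With the second technical libraries alone 2849 genes passed between the lines under alum, 3559 under CAT-ABP + alum and 4865 over the 7 groups. Leaving out tumors in turn gave 0 to 1 for IC CAT (1 without 4T1-CAT alum replicate 3), 0 to 1 for EC CAT in 4T1-CAT tumors and 0 to 6 for 4T1-control against 4T1 (6 without the tumor of lowest depth). The cause of these shifts was not tested.

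With the replicate number as a block, 3 genes passed for EC CAT in 4T1-CAT tumors, and 3 of the 10 macrophage genes passed between the lines under alum and 5 under CAT-ABP + alum, as without the pairing. In no comparison did every tumor correlate best with its own number. In CPM without TMM scaling the exact permutation p was 0.159 for Adgre1 between the lines under alum, 0.158 for C1qa, 0.117 for C1qb and 0.450 for C1qc under CAT-ABP + alum, 0.0563 for Adgre1 with EC CAT in 4T1 and 0.0519 for Cd163 with IC CAT. Of the 13 pairs 11 kept the threshold without libraries of low depth, where Trem2 with Mrc1 and Csf1r with Cx3cr1 lost it and Mrc1 with Csf1r gained it, and 12 kept it with DESeq2's size factors, where Trem2 with Mrc1 lost it. The few counts of C1qa and Cx3cr1 limit their precision, and groups of 5 or 6 tumors limit every test.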

Other observations

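Further gene lists were compared between CT26 and 4T1 tumors in the same fits, with edgeR's quasi-likelihood test and Benjamini-Hochberg adjustment. Of all genes tested, 42.4% passed under alum and 45.5% under CAT-ABP + alum. A count near these shares is not a result about a list. Of the heme-handling genes, 3 were higher and 1 lower in CT26 of 6 under alum, and 3 higher of 5 under CAT-ABP + alum. Blvrb, a biliverdin reductase, was higher by log2 2.52 and 2.03, and Slc40a1, the iron exporter ferroportin, was lower by log2 -2.27 under alum. Of the genes of alternative activation, 3 were higher and 1 lower of 6 under alum and of 7 under CAT-ABP + alum. Retnla, a gene induced by interleukin signals in macrophages, was higher under both injections (log2 1.23 under CAT-ABP + alum), as was Msr1, a scavenger receptor (log2 0.48 and 0.49). Of the inflammatory genes, 2 were higher of 4 under alum, among them Ptgs2 (log2 1.29), and 2 of 6 under CAT-ABP + alum.

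Of 7 myeloid transcription factors, 2 were higher and 1 lower in CT26 under alum and 1 was lower under CAT-ABP + alum. The shares of all genes were 42.4% and 45.5%, and the counts of this list did not exceed them by as much as 1 gene. Nr1h3, a sterol-sensing nuclear receptor, was higher by log2 1.83 and Irf8, a factor of monocyte development, by 1.12 under alum. Runx1, a transcription factor of blood cells that epithelial cells also express, was lower by log2 -0.96 under alum and -1.27 under CAT-ABP + alum. Neutrophil genes gave 1 higher and 1 lower of 6 under alum and 2 higher and 1 lower under CAT-ABP + alum, with Mmp9, a matrix protease, at log2 -3.20 and -2.76. Of the dendritic cell genes, 1 of 7 was higher under alum, Xcr1 (log2 0.91), and 2 of 6 under CAT-ABP + alum, Ccr7 (log2 0.97) and Xcr1 (1.19). Fibroblast genes gave 1 higher and 4 lower of 8 under alum and 1 higher and 5 lower under CAT-ABP + alum, with Dcn at log2 1.22 and Col1a1 at -1.37 under alum.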
